A study of Mus musculus with 9 samples.

Results

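Cytosolic ribosomal protein genes were examined in the trigeminal ganglion (TG), the sensory ganglion that holds the cell bodies of neurons serving the temporomandibular joint (TMJ). They were taken from the mRNA table by symbol: protein-coding genes in GENCODE M21 named Rpl or Rps with a number, Rplp0 to Rplp2, or Rpsa, without the Rps6k kinases. This rule found 91 of the 21790 protein-coding genes of that table, with 511 of its 102122 transcripts. By name, 46 encode large subunit proteins and 31 small subunit proteins of the core ribosome. Another 6 were classed as paralogues of a core gene (Rpl3l, Rpl22l1, Rpl39l, Rpl10l, Rps27l and Rpl36al), and 6 are retrogene or pseudogene copies that are annotated as coding. The last 2 match by symbol and were placed in none of these classes (Rpl7l1, named as like Rpl7, and Rps19bp1).

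All mice were 8-week-old males of the C57BL/6 strain, labelled WT, that received a unilateral injection into the TMJ under isoflurane. The saline group received 10 µl of saline and is labelled day 3. The CFA3D and CFA6D groups received 10 µl of complete Freund's adjuvant (CFA), a suspension of killed mycobacteria in oil that causes joint inflammation, at 5 mg/ml, and are labelled day 3 and day 6. Tissue from 3 mice was combined in each library and each group had 3 libraries, so every n below counts pools. No saline library of day 6 was among those analysed here. In CFA6D against saline, CFA and the later day therefore cannot be told apart. The comparisons ask whether the mRNA of the ribosome's proteins changed in the TG on each day of TMJ inflammation.

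A cytosolic ribosome is built from ribosomal RNA and a fixed set of proteins, most of them present in a single copy, so the genes for these proteins are transcribed at high and similar levels in most cells. Their mRNAs begin with a tract of pyrimidines at the very start of the transcript (the TOP motif), through which the growth-controlling kinase mTOR, acting in part on the RNA-binding protein Larp1, sets how strongly they are translated. In sensory neurons, local translation and mTOR activity are studied in connection with pain, and some ribosomal protein mRNAs are carried into axons. Levels of mRNA, as measured here, say nothing of translation.

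The first bases of these mRNAs are shown because the motif sits there. Of the 91 genes, 66 matched a RefSeq promoter (GRCm38.p6, 250 bases before to 50 after an annotated start). Of these, 14 (21.2%) had at an annotated start a C followed by at least 4 further C or T, against 3.01% of all 27025 genes with such a promoter. Taken more loosely, as a C followed by at least 5 of C or T within 20 bases before to 30 after a start, the run was held by 47 (71.2%) against 37.8% of all genes. The windows below have 30 bases, 10 before and 20 after the annotated start on the gene's strand, with the longest such run in capitals. Of 18 genes with such a window that were called in a comparison below, 8 held a run and 10 did not. The windows shown are examples of both from genes described below, and the first 5 hold a run.
Rps15a (chr7:118116128-118116157, minus strand): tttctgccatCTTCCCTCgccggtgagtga
Rpl38 (chr11:114668570-114668599, plus strand): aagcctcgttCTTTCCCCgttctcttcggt
Rps6 (chr4:86857348-86857377, minus strand): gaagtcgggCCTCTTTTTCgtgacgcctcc
Rplp2 (chr7:141447641-141447670, plus strand): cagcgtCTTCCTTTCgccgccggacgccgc
Rpl27a (chr7:109519185-109519214, plus strand): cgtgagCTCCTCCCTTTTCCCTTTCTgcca
Rps3 (chr7:99483690-99483719, minus strand): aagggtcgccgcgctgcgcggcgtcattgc
Rpsa (chr9:120127756-120127785, plus strand): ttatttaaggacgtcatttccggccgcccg
Rpl36a (chrX:134585644-134585673, plus strand): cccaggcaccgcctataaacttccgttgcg
Rpl13 (chr8:123102340-123102369, plus strand): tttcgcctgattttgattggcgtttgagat
Rps16 (chr7:28350679-28350708, plus strand): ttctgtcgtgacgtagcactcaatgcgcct
In Rps15a and Rpl38 the run begins at the annotated start itself, and in Rps6 at the base before it. The windows of Rps3, Rpsa, Rpl36a, Rpl13 and Rps16 hold no run of these letters, which says only that the annotated starts lack it there. In the whole 300 bases, CCGGAA on either strand, the core letters bound by ETS factors, was held by 36 of the 66 (54.5%) against 16.7% of all genes. The letters AAGATGG on either strand, part of a site of the factor YY1, were held by 10 (15.2%) against 7.28%, and TATAAA by 7 (10.6%) against 15.7%.

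The depth behind the FPKM values (fragments scaled to transcript length and to the mapped fragments of the library) was inferred from the step between low values and lay between 30 and 42.15 M read pairs per library. Neuronal markers were high in every library, with the 10 listed genes (Tubb3, Nefl, Uchl1 and others) summing to 2180 to 3274.6 FPKM. Blood RNA was present in every library. The 5 erythroid markers summed to between 1667 FPKM in CFA3D replicate 3 and 5789 FPKM in saline replicate 2. Several libraries also held RNA of other tissues. Saline replicate 3 had 10611 FPKM of 5 pituitary markers, led by Gh, and CFA6D replicates 4 and 5 had 1114 and 403 FPKM, while the other 6 libraries had 8.89 to 99.7. CFA6D replicate 6 had 2451 FPKM of 5 neutrophil markers, against 21.4 to 123 in the other 8, and saline replicate 2 had the most of 5 skeletal muscle markers at 136 FPKM. One predicted noncoding transcript took an exceptional share of the lncRNA table in CFA6D replicate 4, whose lncRNA total was 70257 FPKM against 8151 to 8911 elsewhere.

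Ribosomal protein genes stood high among the mRNAs of the TG by FPKM, which is scaled to transcript length. Of the 100 protein-coding genes with the highest mean FPKM, 13 were ribosomal protein genes of this set. The 91 genes together had 11977 to 13053 FPKM in each saline and CFA3D library, which was 5.06% to 5.32% of all FPKM of the mRNA table. The mean over libraries reached 100 FPKM in 58 of the genes and 50 FPKM in 72. Their median was 126 FPKM, against 5.84 FPKM over the 16110 gene sums that were tested. The 31 core small subunit genes had a median of 150.1 FPKM (quartiles 124 and 174), and the 46 core large subunit genes 128 FPKM (quartiles 95.4 and 175), so the subunits overlapped widely although their proteins are needed in equal number. Over the 9 libraries, the coefficient of variation of a core gene had a median of 9.53%.

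**Figure D1:**
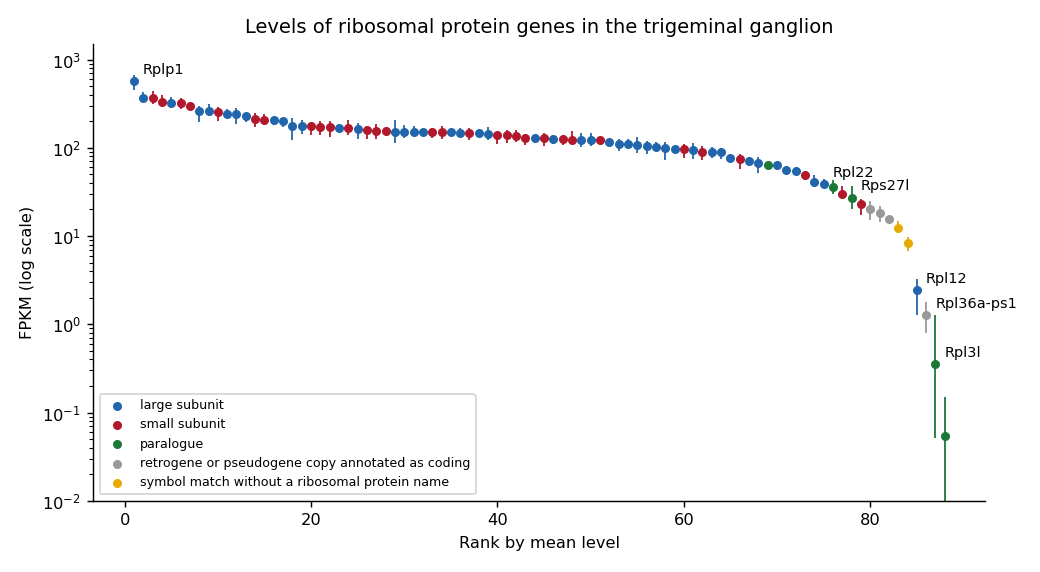
Mean FPKM over 9 libraries (dots, log axis) of each gene ranked by its mean, with the lowest and highest library as a line (cut at the lower edge) and the class of the gene as colour. The 3 genes with a mean under 0.01 FPKM are left out. Most core genes lie between about 50 and 400 FPKM, Rplp1 stands at 568 FPKM, and Rpl12 is the one core gene below 10 FPKM.

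The 5 highest genes were Rplp1, Rpl38, Rps29, Rps14 and Rpl26. Rplp1 (chr9:61913284-61914542, minus strand, GRCm38) encodes an acidic protein of the stalk of the large subunit that recruits elongation factors, and its mean was 568 FPKM. Rpl38 had 370 FPKM, Rps29 365 FPKM, Rps14 334 FPKM and Rpl26 324 FPKM. The partners of Rplp1 in the stalk were lower per length, with 258 FPKM for Rplp0, the anchor of the stalk, and 89.1 FPKM for Rplp2.

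At the other end, Rpl12 (chr2:32961559-32965345, plus strand) was the only core gene with a mean under 10 FPKM. Its 9 libraries were listed at 1.27 to 3.26 FPKM, and only 4.09% of that lay in transcripts annotated as coding. The highest transcript of Rpl12 was a retained-intron one. Whether the low value is its level in the tissue or comes from how its reads were assigned was not tested. The 5 lowest genes were Rpl3l, Rpl39l, Rpl9-ps1, Rpl10l and Rpl36-ps4. The last pair was listed at 0 in every library, and Rpl39l and Rpl9-ps1 were below the mean of 0.1 FPKM that a test required. In all, 87 of the 91 genes passed that filter, and 4 did not.

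The table also holds transcripts of these genes that are not coding, so a gene sum is not all mRNA that can be translated. Coding transcripts made up 85.5% of the FPKM of the 91 genes and retained-intron transcripts 11%. In 38 of the 77 core genes at least 90% of the FPKM lay in coding transcripts, and in 7 less than 50% did (Rpl13a, Rps16, Rpl3, Rps26, Rpl10a, Rps13 and Rpl12). Retained-intron transcripts took 11% ± 0.298 (SD, n = 3) of the genes' FPKM in saline, 11.2% ± 0.237 in CFA3D and 10.8% ± 0.0980 in CFA6D. The saline libraries overlapped both other groups in this share, and the CFA6D libraries lay below the CFA3D libraries.

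Paralogues of core genes differed in level by orders of magnitude. Rpl22l1, a paralogue of the RNA-binding protein gene Rpl22, had 36.1 FPKM against 38.68 FPKM for Rpl22. It made up 47.5% ± 2.09 of the pair in saline, 48.6% ± 3.34 in CFA3D and 48.6% ± 2.11 in CFA6D, with no group apart. Rpl36al had 64.5 FPKM against 67.9 FPKM for Rpl36a. Rps27l, a paralogue of Rps27 known as a target of p53, had 27.2 FPKM against 256 FPKM for Rps27. Rpl3l, the paralogue of Rpl3 that is typical of striated muscle, had 0.35 FPKM and was highest at 1.28 FPKM in saline replicate 2, the library with the most muscle markers, and next at 0.76 FPKM in CFA6D replicate 6, which came second in muscle markers at 60.3 FPKM.

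Copies of ribosomal protein genes across the genome are a limit on these levels. In the table of other noncoding RNA, 577 pseudogene transcripts had at least 95% identity over at least 80% of the coding sequence of one of the 91 genes, and together they had 2050.0 to 2493 FPKM per library. How the authors' counting split reads between a gene and such a copy is not given in the sources used here, so levels of genes with many copies are uncertain. Rpl27a had 89.0 FPKM and its 11 copies 114 FPKM, of which Gm7536 (chr3:24333068-24333511), identical over the coding sequence, had 106 FPKM. Rpl38 had 3 copies with 136 FPKM, most of it in Rpl38-ps2 (chr6:140746960-140747172), also identical, at 114 FPKM. For Rplp2 and Rps27l no such copy was found, and for Rplp1 the copies had 0.447 FPKM.

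**Figure D2:**
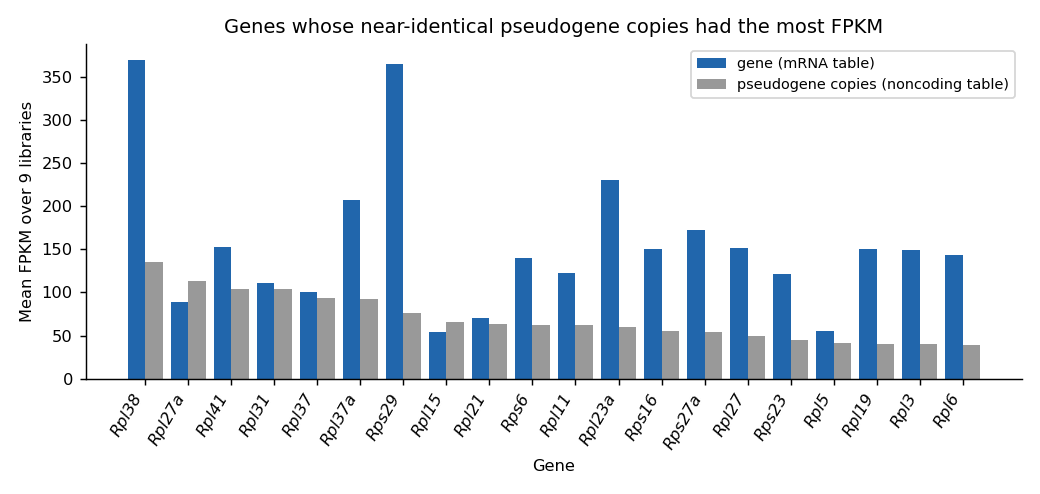
Mean FPKM over 9 libraries of 20 genes (blue bars) and of their near-identical pseudogene copies in the noncoding table (grey bars), ordered by the copies' FPKM. The copies equal or exceed the gene for Rpl27a and Rpl15 and come close to it for Rpl31, Rpl37 and Rpl21.

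On day 3 after CFA the summed FPKM of the ribosomal protein genes differed from saline by less than the spread between libraries, at 12508 ± 513 FPKM (SD, n = 3) in CFA3D and 12502 ± 528 FPKM in saline. This depended on the scale. As a share of the mRNA table's FPKM they made up 5.14% ± 0.0888 in CFA3D and 5.27% ± 0.0496 in saline, with CFA3D replicate 2 within the range of saline. With the libraries scaled to a common median, the sums were 11902, 12286 and 12444 FPKM in CFA3D, all below the 12501, 12817 and 13056 FPKM of saline. The median log2 difference over the 87 genes tested was 0.01, a change of 0.717%, where that of all 16110 gene sums was 0.05. A gene was called where limma gave an unadjusted p under 0.05 for log2(FPKM + 0.1), and 1 gene was called higher and 1 lower, against 3.64% of all gene sums called higher and 0.807% lower. With quantile normalization or median scaling the split was 1 higher and 2 lower. Between groups that did not overlap, 2 genes were higher and 2 lower, where the shares over all gene sums were 7.01% and 2.12%. Single libraries moved these counts. Without saline replicate 1, 21 of 87 genes were higher (against 23.3% of all gene sums) and 6 lower (6.90%, against 3.97%). Without CFA3D replicate 1, 11 were higher (against 13.2%) and 2 lower (against 3.74%), while limma then called 4 higher and 1 lower. Leaving out CFA3D replicate 3 or saline replicate 2 gave 3 higher and 7 lower (8.05%). The shares over all gene sums were 15.5% higher and 4.43% lower without CFA3D replicate 3, and 9.09% and 6.90% without saline replicate 2. With Benjamini-Hochberg adjustment in limma over all gene sums, no gene had an adjusted p under 0.05, and the smallest was 0.997.

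The gene called lower on CFA3D was Rpl36a (chrX:134585654-134588062, plus strand), whose protein lies in the large subunit near the exit site for tRNA. Its level was 66.8, 72.7 and 77.8 FPKM in saline, 64.2, 51.9 and 58.5 FPKM in CFA3D, and 64.5, 79.5 and 75.2 FPKM in CFA6D. All CFA3D libraries were below all saline and all CFA6D libraries. The log2 difference was -0.32 ± 0.11 (SE) on CFA3D against saline (adjusted p = 0.997 in limma), and 0.33 ± 0.11 on CFA6D against CFA3D (adjusted p = 0.634). Reads of Rpl36a may be shared with Rpl36a-ps2 on chromosome 3, identical over the coding sequence and listed at 18.9 FPKM. With the copies added to the gene, Rpl36a was called in neither comparison.

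The gene called higher on CFA3D was Rpl36a-ps1 (chr14:98993870-98994318, minus strand), a copy of Rpl36a annotated as coding. It had 1.12, 0.97 and 0.88 FPKM in saline, 1.81, 1.62 and 1.74 FPKM in CFA3D, and 0.81, 1.39 and 1.06 FPKM in CFA6D. Its listed level thus moved opposite to that of its parent gene, with log2 differences of 0.74 ± 0.21 on CFA3D against saline and -0.65 ± 0.21 on CFA6D against CFA3D (adjusted p = 0.997 and 0.614 in limma). By the inferred depth, its level rested on about 13 read pairs in the lowest library, with a median of 18. How reads were split between this copy and Rpl36a is not known. Among the genes that did not pass, Rpl39, which encodes a small protein of the exit tunnel, came near, with 108, 108 and 120 FPKM in saline and 120, 135 and 146 FPKM in CFA3D (log2 difference 0.25 ± 0.12, adjusted p = 0.997 in limma).

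**Figure D3:**
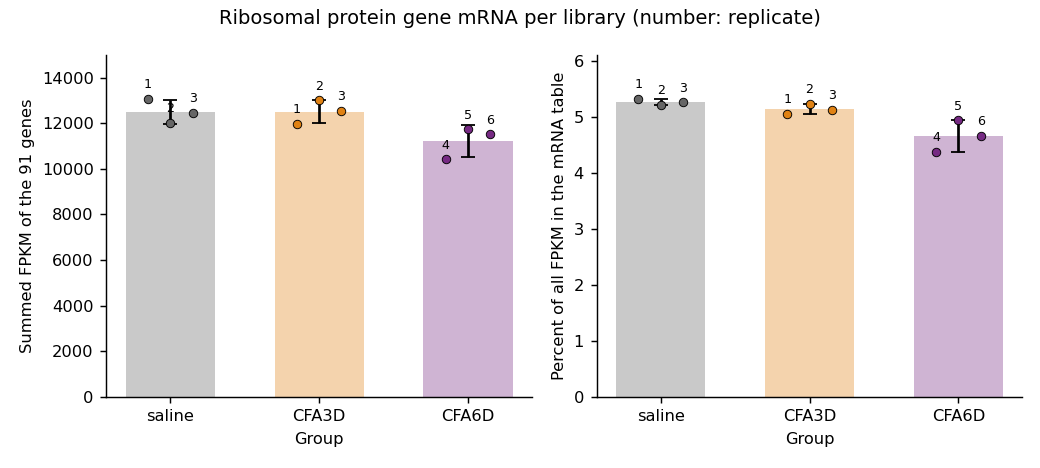
Summed FPKM of the 91 genes (left) and the same as a percent of all FPKM in the mRNA table (right), for each library (dots, with the replicate number) and as group means (bars) with SD (n = 3). The 3 CFA6D libraries lie below all saline and all CFA3D libraries in both panels, and CFA6D replicate 4 is lowest.

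On day 6 after CFA the mRNA of these genes was slightly lower than in the saline group of day 3. The summed level was 10416, 11729 and 11506 FPKM in the CFA6D libraries, against 13053, 11999 and 12453 FPKM in saline. It made up 4.38%, 4.94% and 4.67% of the mRNA table's FPKM, against 5.22% to 5.32% in saline. All CFA6D libraries were below all saline libraries on both scales, CFA6D replicate 5 by the least. The lower level was shared by the subunits, with 6379 ± 369 FPKM against 7121 ± 352 FPKM for the core large subunit and 4645 ± 323 FPKM against 5177 ± 185 FPKM for the core small subunit.

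Over the genes, the median log2 difference on CFA6D against saline was -0.14, a change of -9.14%, and 77 of 87 genes were below 0, where the median of all gene sums was 0.03. By limma 10 genes (11.5%) were called lower, against 2.85% of all gene sums, and 1 was called higher, against 8.21%. The CFA6D libraries lay wholly below the saline libraries in 28 genes (32.2%), against 5.49% of all gene sums, and wholly above in 1, against 10.7%. No gene passed at an adjusted p under 0.05 in limma (smallest 0.329), and none changed by 1 or more on the log2 scale.

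CFA6D replicate 4 weighed heavily in these calls. It was the lowest of the 9 libraries in 67 of the 87 genes, with a median log2 deviation of -0.20 from the genes' means, against -0.04 and -0.05 in the other CFA6D libraries. Without it limma called 0 genes in either direction, the median log2 difference was -0.09, and the other 2 CFA6D libraries lay wholly below saline in 31 genes (35.6%, against 7.88% of all gene sums). Without saline replicate 1, the highest of the 9 libraries in 29 genes, 3 genes were called lower. Without the library rich in neutrophil markers (CFA6D replicate 6) 8 were called lower and none higher, and without the one rich in pituitary markers (saline replicate 3) 13 were called lower and 1 higher. Scaling the libraries to a common median gave 31 lower calls and quantile normalization 29, with none higher.

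**Figure D4:**
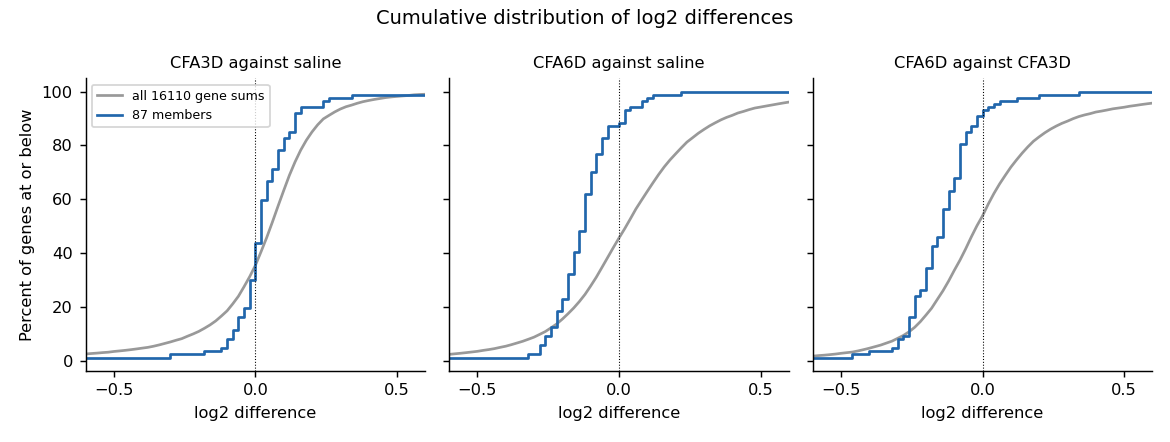
Cumulative percent of genes (vertical) at or below each log2 difference (horizontal) for the 87 genes tested (blue) and all 16110 gene sums (grey) in the 3 comparisons. On CFA3D against saline the lines cross near 0, and in both comparisons of CFA6D the blue line lies to the left through most of its range.

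The genes called lower on CFA6D against saline included Rpsa, Rps15, Rps15a, Rps3 and Rps16 of the small subunit and Rpl13, Rpl10a, Rplp1 and Rpl36 of the large subunit. Rpl13 (chr8:123102350-123105244, plus strand) was measured at 284, 244 and 245 FPKM in saline and at 188, 223 and 221 FPKM in CFA6D (log2 difference -0.29 ± 0.11, adjusted p = 0.347 in limma). Rplp1 had 666, 581 and 564 FPKM in saline, 581, 655 and 597 FPKM in CFA3D, and 455, 527 and 488 FPKM in CFA6D (log2 difference -0.30 ± 0.12 on CFA6D against saline, adjusted p = 0.398 in limma). Both stood lower in all 3 CFA6D libraries than in any other library, as did Rpsa.

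Rpsa (chr9:120127689-120132369, plus strand) encodes a small subunit protein also known as the laminin receptor. It had 185, 166 and 150.2 FPKM in saline, 165, 174 and 159.9 FPKM in CFA3D, and 127, 136 and 149 FPKM in CFA6D. The log2 difference was -0.28 ± 0.10 against either group (adjusted p = 0.340 against saline and 0.642 against CFA3D in limma), although the highest CFA6D library was close to the lowest saline library.

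Rps3, a small subunit protein at the entry of the mRNA channel that also acts in DNA repair, had 106, 91.4 and 104 FPKM in saline, against 76.4, 90.1 and 90.96 FPKM in CFA6D (log2 difference -0.23 ± 0.10, adjusted p = 0.436 in limma). Here the groups were separated by little, since its lowest saline library was 91.4 FPKM.

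Rpl10a, the protein most used to tag ribosomes for purification from chosen cells, was called by its gene sum but not by its main transcript. Its gene sum was 114, 95.04 and 94.8 FPKM in saline and 74.9, 77.9 and 95.1 FPKM in CFA6D, so the groups overlapped (log2 difference -0.29 ± 0.11, adjusted p = 0.385 in limma). Only 27.6% of its FPKM lay in coding transcripts. Its highest transcript, which retains an intron, had 44.3, 46.8 and 28.0 FPKM in saline, against 48.5, 48.8 and 42.1 FPKM in CFA6D, and its difference was positive (0.26). A second retained-intron transcript was at 13.5 to 19.8 FPKM in 7 libraries and at 0.3 and 0.9 FPKM in CFA6D replicates 4 and 5.

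**Figure D5:**
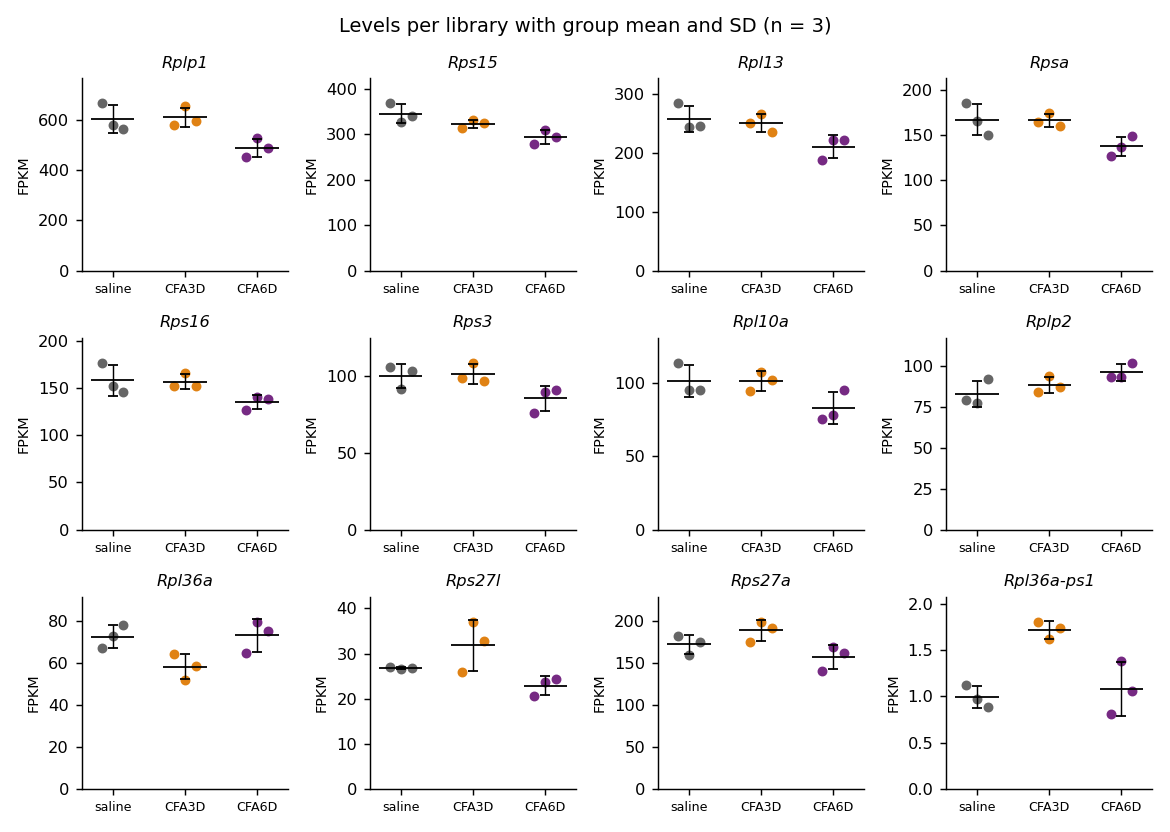
FPKM of 12 genes in each library (dots), with the group mean (line) and SD (bars, n = 3), on axes that start at 0. Rplp1, Rpl13 and Rpsa are lowest in the 3 CFA6D libraries, Rplp2 is higher in all CFA6D than in all saline libraries, Rpl36a is lowest on CFA3D, and Rpl36a-ps1 is highest there.

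Rplp2 (chr7:141447370-141451585, plus strand), the partner of Rplp1 in the stalk, was the single gene called higher on CFA6D. It had 79.2, 77.5 and 92.1 FPKM in saline, 84.1, 93.6 and 87.3 FPKM in CFA3D, and 93.0, 92.9 and 101.9 FPKM in CFA6D. The CFA6D libraries were all above the saline libraries, by less than 1 FPKM at the closest (log2 difference 0.21 ± 0.09, adjusted p = 0.425 in limma), and the call was lost under most settings that scaled the libraries or left one out. The third stalk gene, Rplp0, had 313, 266 and 228 FPKM in saline, against 236, 239 and 237 FPKM in CFA6D and was not called (log2 difference -0.17 ± 0.12, adjusted p = 0.665 in limma). Whether Rplp1 and Rplp2 differed from each other was not tested.

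Against CFA3D, the libraries of CFA6D were lower in more genes. The median log2 difference was -0.15, a change of -10.1%, and 81 of 87 genes were below 0, where the median of all gene sums was -0.02. By limma 19 genes (21.8%) were called lower, against 4.34% of all gene sums, and 1 was called higher (Rpl36a), against 3.07%. The groups did not overlap in 37 genes (42.5%) that were lower, against 10.1% of all gene sums, and in 1 that was higher, against 6.62%. No adjusted p was under 0.05 in limma (smallest 0.610). Without CFA6D replicate 4, 2 genes were called lower and 1 higher, without CFA3D replicate 2, which was the highest library in 25 genes, 3 were called lower, and without CFA3D replicate 3 the count was 11 lower. The comparisons of CFA6D with saline and with CFA3D share the CFA6D libraries.

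Of the 19, Rps27l had the smallest p. It had 27.1, 26.5 and 26.9 FPKM in saline, 25.8, 37.0 and 32.7 FPKM in CFA3D, and 20.5, 23.8 and 24.4 FPKM in CFA6D. Its 3 CFA6D libraries were below all others, while CFA3D replicates 2 and 3 were above all others. The log2 difference of CFA6D against CFA3D was -0.47 ± 0.13 (adjusted p = 0.610 in limma), and at this threshold no alternative fit lost the call. Its share of the Rps27 pair was 10.9% ± 1.19 on CFA3D and 8.63% ± 0.975 on CFA6D, against 9.26% ± 0.602 in saline.

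Rps27a, which encodes a fusion of ubiquitin with a small subunit protein, had 176, 199.6 and 192 FPKM in CFA3D and 141, 169 and 162 FPKM in CFA6D (log2 difference -0.27 ± 0.10, adjusted p = 0.642 in limma). It stood at 182, 159.9 and 176 FPKM in saline, with a mean between those of the CFA days. Rps6, the substrate of the S6 kinases that serves as a readout of mTOR activity when phosphorylated, had 145, 160.1 and 139.7 FPKM in CFA3D and 112, 131 and 135 FPKM in CFA6D (log2 difference -0.23 ± 0.10, adjusted p = 0.670 in limma). Against saline, at 158, 137 and 139 FPKM, it did not pass (log2 difference -0.20 ± 0.10, adjusted p = 0.522 in limma). The X-linked genes Rpl10 and Rps4x were also called lower on CFA6D against CFA3D (log2 differences -0.26 ± 0.10 and -0.24 ± 0.11), as was Rpl10-ps3, a copy of Rpl10 (-0.32 ± 0.14).

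Other genes with known roles outside or at the edge of the ribosome did not pass in any of the 3 comparisons. Rpl5 and Rpl11, which with 5S RNA bind Mdm2 and so link ribosome assembly to p53, stood at 57.9 ± 3.55 FPKM (Rpl5) and 130.4 ± 15.6 FPKM (Rpl11) in saline, and in CFA6D at 53.3 ± 1.82 and 112 ± 6.00 FPKM (adjusted p = 0.597 and 0.472 in limma). Rpl13a, used as a reference gene in PCR, had 272 ± 25 FPKM in saline, 274 ± 20.8 FPKM in CFA3D and 233 ± 31.6 FPKM in CFA6D. Rps18, used likewise, had 159.6 ± 14.3, 156.9 ± 16.1 and 145.9 ± 11.7 FPKM. Rps19, mutated in Diamond-Blackfan anaemia, Rpl4 and Rpl41 also stayed short of the test.

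Of 3 listed ribosomal genes that the symbol rule does not take in, 1 was called lower on CFA6D against saline, where 2.85% of all gene sums were. The median log2 difference of the 3 was -0.18. The called gene was Rack1, the scaffold protein on the small subunit, with 95.8, 86.5 and 85.6 FPKM in saline. It had 66.5, 68.6 and 88.0 FPKM in CFA6D, where replicate 6 overlapped saline (log2 difference -0.27 ± 0.11, adjusted p = 0.418 in limma).

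Of 38 initiation factor genes, 5 were called higher and 0 lower on CFA6D against saline, where 8.21% of all gene sums were called higher, and their median log2 difference was 0.05. Without saline replicate 1 the count was 11 higher, without saline replicate 2, CFA6D replicate 4 or CFA6D replicate 6 it was 3 higher, and quantile normalization gave 3 higher and 4 lower with a median of -0.01. Against CFA3D 1 was called higher and 3 lower, where the shares over all gene sums were 3.07% and 4.34%, with a median of -0.05. Without CFA3D replicate 2 or CFA6D replicate 5 none was lower. The largest changes against saline were in Pabpc1, the poly(A)-binding protein (0.46 ± 0.14), Eif3f (0.34 ± 0.10) and Eif4g3, a scaffold of the cap-binding complex (0.33 ± 0.09). On CFA3D against saline 4 were called higher and 0 lower, where 3.64% of all gene sums were called higher, led by Eif6, which keeps free large subunits apart from small ones (0.25 ± 0.08). Leaving out saline replicate 1 raised this count to 7, and leaving out saline replicate 2 lowered it to 1. Of 9 elongation factor genes, 1 was called higher on CFA6D against saline, where 8.21% of all gene sums were. This was Eef1a2, the form of eEF1A found in neurons and muscle. Its level was 151 ± 2.52 FPKM in saline, 172 ± 15.5 FPKM in CFA3D and 220 ± 35.9 FPKM in CFA6D (log2 difference 0.53 ± 0.12, adjusted p = 0.165 in limma).

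Genes of the mTOR pathway and of TOP mRNA control were called higher in 5 of 20 on CFA6D against saline and lower in 0, against 8.21% of all gene sums called higher, with a median log2 difference of 0.15. Without saline replicate 2 or CFA6D replicate 4 the count was 3. Ddit4, also called REDD1, an inhibitor of mTOR complex 1 that responds to stress and glucocorticoids, had 22.5 ± 4.93 FPKM in saline, 23.3 ± 6.00 FPKM in CFA3D and 70.5 ± 8.10 FPKM in CFA6D. Its log2 difference on CFA6D against saline was 1.66 ± 0.22 (adjusted p = 0.0732 in limma). Larp1, the protein that binds TOP mRNAs, had 21.7 ± 0.673, 24.1 ± 0.547 and 28.6 ± 1.89 FPKM in the same order (0.40 ± 0.07, adjusted p = 0.104). Larp4, which binds poly(A) and stabilises mRNA, was higher by 0.31 ± 0.10. Any link between these genes and the ribosomal protein mRNAs was not tested.

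Of 32 ribosome biogenesis genes, 1 was called higher (Bysl, 0.37 ± 0.16) and 1 lower (Pes1, -0.21 ± 0.08) on CFA6D against saline. The shares over all gene sums were 8.21% and 2.85%, and the median log2 difference of the 32 genes was -0.01. On CFA3D against saline 2 of the 32 were called higher (Wdr12 and Brix1), where 3.64% of all gene sums were. Against CFA3D 0 were called higher and 3 lower on CFA6D, with a median of -0.08, against 4.34% of all gene sums called lower. Without CFA6D replicate 4 or 5 that count was 1. Mitochondrial ribosomal protein genes, which serve a separate ribosome, were called lower in 7 of 78 and higher in 0 on CFA6D against saline, against 2.85% of all gene sums called lower, with a median log2 difference of -0.09. The count was 1 without saline replicate 2, 2 without saline replicate 1 or CFA6D replicate 4, 4 without CFA6D replicate 5, 12 without saline replicate 3 and 15 and 17 with median scaling and quantile normalization. Nuclear genes for subunits of oxidative phosphorylation, another group of short and abundant mRNAs, were called lower in 10 of 83 on CFA6D against saline. Of these genes 1 was called higher, and their median was -0.11. The shares over all gene sums were 2.85% lower and 8.21% higher. Without saline replicate 2 or CFA6D replicate 5, 6 were lower, and without saline replicate 3, 18 were, as were 22 with quantile normalization. On CFA6D against CFA3D 7 of the 83 were called lower and 0 higher, with a median of -0.10. Of the 78 mitochondrial ribosomal protein genes 11 were called lower there and 0 higher, with a median of -0.12. Over all gene sums 4.34% were called lower and 3.07% higher in that comparison. Among gene sums outside the 91, 160 had a main transcript under 1000 bp and a mean of at least 50 FPKM. Their median was -0.09 on CFA6D against saline, with 70.0% below 0, and -0.09 against CFA3D, with 68.1% below 0. The 7258 with a main transcript of 3000 bp or more had medians of 0.06 against saline and 0.004 against CFA3D. Of the 87 genes tested, 62 had a main transcript under 1000 bp, and the part of transcript length in their lower level was not tested.

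Some cell markers were called as well. Of the 10 neuronal markers 4 were called higher on CFA6D against saline, where 8.21% of all gene sums were, with a median log2 difference of 0.24 and summed levels of 2809 to 3275 FPKM against 2180 to 2897 FPKM. That count was 2 without saline replicate 3, CFA6D replicate 4 or CFA3D replicate 1 and with median scaling. On CFA3D against saline 2 of the neuronal markers were called higher, where 3.64% of all gene sums were, with a median of 0.20. On CFA6D against CFA3D 1 was called higher, where 3.07% of all gene sums were, with a median of -0.01. The 6 macrophage markers had a median of -0.34 on CFA6D against saline and none was called. Their sum was lowest, at 38.4 FPKM, in CFA6D replicate 4, against 55.5 to 98.5 FPKM elsewhere. The 5 satellite glia markers (-0.13) and 5 Schwann cell markers (-0.11) had no gene called against saline. Against CFA3D 1 satellite glia marker (Fabp7) and 1 macrophage marker (C1qb) were called lower on CFA6D, where 4.34% of all gene sums were. Of the 5 neutrophil markers 1 was called higher on CFA6D against saline and 4 against CFA3D, where 8.21% and 3.07% of all gene sums were. Leaving out single libraries gave 0 to 4 neutrophil markers called higher against saline, and 0 to 3 macrophage markers called lower. The part of these markers in the level of the ribosomal protein genes was not tested, and in bulk tissue fewer cells of a type and less RNA per cell cannot be told apart.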

How the data were processed

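Total RNA of mouse TG was sequenced in 9 libraries (3 saline, 3 CFA3D and 3 CFA6D), grouped by their labels. The files the authors deposited give FPKM for each transcript, with 1 table each for mRNA, lncRNA and the other noncoding RNA. Their methods name removal of ribosomal RNA, a stranded kit, Trimmomatic, GRCm38 and CLC Genomics Workbench and do not mention FPKM. The labels name a different library kit, and the submitters' processing notes list Bowtie 0.12.2 and mm8. How multiply mapped reads were counted is not given in the sources used here. All 9 columns of each table were used (0 left out).

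Transcripts were joined by name to GENCODE M21 (101539 of 102122 matched), and FPKM was summed per gene over all its transcripts in the mRNA table. Tests ran on log2(FPKM + 0.1) with limma 3.58.1 (R 4.3.3), with 3 groups, all 9 libraries and a trended empirical Bayes variance. A gene needed a mean of 0.1 FPKM or more to be tested, which left 16110, and Benjamini-Hochberg adjustment covered all of them. Calls used an unadjusted p under 0.05, the cutoff of the study's methods. On this scale the added 0.1 shrinks the differences of low genes. The fit was tested on simulated data. With 3 libraries against 3, an exact permutation test cannot go below p = 0.1, so none is given. The labels do not pair pools across groups by more than a number, and deviations of same-numbered saline and CFA3D libraries correlated at 0.09, -0.08 and 0.03.

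Depth was inferred from the step between low products of FPKM and length, and is approximate. Copies were sought with blastn 2.17.0 from the coding part of each gene's highest coding transcript. Other steps used Python 3.11.15, numpy 2.4.6, pandas 2.3.3 and matplotlib 3.10.9. Start windows and promoters were read from RefSeq tables (GRCm38.p6).

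The members and gene lists were chosen with earlier results of these data known. Genes named were those of a panel by role, paralogue pairs, the 5 highest and 5 lowest by mean, the 3 largest called rises and falls of each comparison, and from other translation lists at most 3 called genes a comparison. Other called genes are named because they are few, after their values were seen. Alternatives were pseudocounts of 0.01 and 1, a mean of at least 1 FPKM, no filter, quantile normalization, median scaling, only the groups compared, the highest transcript, stricter calls, a replicate block and leaving out each library. The use of coding transcripts only, of sums with pseudogene copies, and of these settings for the other gene lists came after seeing the data. Results that need items withheld from this text are not reported here.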

Additional observations from a re-analysis of the deposited data

Results flagged for a closer look

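Of the 39 named genes, 13 differed between the CFA days in limma at an unadjusted p under 0.05 (CFA6D against CFA3D, none at an adjusted p under 0.05). Some genes were named for their called changes, so this count is set in part by that choice. Over all gene sums 3.07% were called higher and 4.34% lower. Rpl10, Rpl10-ps3, Rps27a, Rps27l, Rps4x and Rps6 were called in neither comparison with saline. The log2 differences were -0.26 for Rpl10, -0.32 for Rpl10-ps3, -0.30 for Rpl10a, -0.26 for Rpl13, -0.32 for Rplp1, -0.27 for Rps27a, -0.25 for Rps3, -0.24 for Rps4x, -0.23 for Rps6 and -0.28 for Rpsa. Rps27l differed by -0.47 and Rpl36a-ps1 by -0.65. Rpl36a was the single one of the 13 that was higher on CFA6D, by 0.33.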

How the results depend on the processing

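The medians of the log2 difference over the members moved by less than the spread between libraries under every setting tried, from -0.06 to 0.06 on CFA3D against saline, from -0.09 to -0.18 on CFA6D against saline and from -0.10 to -0.19 on CFA6D against CFA3D. On CFA3D against saline, where the main median was 0.01, the sign turned with quantile normalization (-0.05), median scaling (-0.06) and without saline replicate 2 or CFA3D replicate 2 (-0.02 in both). The counts of calls depended on single libraries. Leaving out each library in turn gave 2 to 5 calls on CFA3D against saline (2 with all libraries, 5 without CFA3D replicate 1), 0 to 14 on CFA6D against saline (11 with all) and 3 to 26 on CFA6D against CFA3D (20 with all). On CFA6D against saline, 3 calls were left without saline replicate 1, 7 without CFA3D replicate 1 or 3, and 5 in a fit of only the groups compared, while quantile normalization gave 29 and median scaling 31. At an adjusted p under 0.05, or with a log2 difference of at least 1 added to the unadjusted p, 0 members were called in each comparison. Summed over coding transcripts only, the members had 10704, 10660 and 9605 FPKM in saline, CFA3D and CFA6D, and with pseudogene copies 14922, 14884 and 13412 FPKM, against 12502, 12508 and 11217 FPKM (both added after seeing the data). With copies 8 genes were called lower on CFA6D against saline and 15 against CFA3D. For the highest transcript, Rpl10a turned to 0.26 on CFA6D against saline and 0.20 against CFA3D. A replicate block was fitted for CFA3D against saline alone and gave 2 calls, as without the block. The numbers do not pair the samples. The n of 3 pools per group and the unknown split of reads between genes and copies limit these values.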

Other observations

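The transcripts of Rpl3 split the libraries in a way that the groups do not. Its coding transcript had 63.8 FPKM in saline replicate 3 and 57.8 FPKM in CFA6D replicate 4, against 18.1 to 25.8 FPKM in the other 7 libraries. Its main retained-intron transcript was the reverse, with 46.8 and 45.0 FPKM in those libraries and 84.5 to 96.5 FPKM in the others. The gene sum hardly differed, at 156 and 148 FPKM against 138 to 162 FPKM in the other 7. These libraries also had the most FPKM of 5 pituitary markers, at 10611 and 1114. This was seen on looking through transcripts of the named genes and was not tested.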
